A study of Mus musculus with 6 samples.

Results

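Among 21377 autosomal protein-coding genes counted in Eμ-Myc pre-B cells, 19 lay below 1 CPM in all 4 wild-type and premalignant libraries and at 3 CPM or more in both malignant libraries. These 19 genes were selected on those measured levels, so the rise in malignant cells is a description of the selection and not a result. They were Cpn1, Zbtb32, Thbs3, E230008N13Rik, Itga1, Chit1, Espn, Cd80, Zfp532, Gdpd5, Tmprss13, Acsbg1, Arhgap22, Bmpr1a, Lhfpl4, Cbr3, Clec2g, Stc1 and Utf1. CPM is the usual measure of a level scaled for depth, in which the count of a gene is divided by the total count over all genes of the same library and expressed in parts of 1000000. Of the 9607 genes that lay below 1 CPM in the wild-type and premalignant libraries, the 19 made up 0.198%.

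RNA was sequenced from pre-B cells that had been sorted from the bone marrow of C57BL/6 mice, with 2 individual mice per stage and 6 libraries in all. Wild-type mice were littermates without the transgene and 4 to 6 weeks old. Premalignant mice were E{mu}Myc/+ and of the same age, and malignant mice were E{mu}Myc/+ with spontaneous lymphoma at 10 to 20 weeks. The sort took B220-high, IgM-low and IgD-low cells from wild-type and premalignant mice, while for malignant mice the study's methods describe B220-positive cells negative for IgM and IgD. Wild-type and premalignant mice were female, and malignant mice were of either sex. In malignant mice the sorted cells are an outgrowth that arose separately in each animal, so that stage, age and sort cannot be told apart, and each malignant library stands for 1 lymphoma.

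The Eμ-Myc transgene places Myc under the enhancer of the immunoglobulin heavy chain locus, which is active in B-lineage cells, and lymphoma follows only after a delay and after further events. Genes that belong to other tissues or to other stages of the B lineage are normally kept silent in pre-B cells by the lack of their activators, by repressors and by closed or methylated chromatin. In tumours such genes can be transcribed in all lymphomas or in individual ones, and a pair of animals samples few of these states.

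The replicate 1 libraries were deeper, with total counts from 51065861 to 53453055, than those of replicate 2, with totals from 30031100 to 34543633, so that 3 counts corresponded to 0.0561 to 0.0999 CPM. Myc itself was at 37.7 and 46.7 CPM in wild type, 1143 and 1110 CPM in premalignant and 1562 and 1466 CPM in malignant cells. Malignant replicate 1 had 1.55 CPM of Xist and 114 CPM of Ddx3y, as in a male, while the other 5 libraries had 2027 to 2584 CPM of Xist and at most 0.128 CPM of Ddx3y. The genes described here are autosomal, and sex was not tested as a part of their levels. The 13 pre-B cell markers summed to 8481 and 9501 CPM in wild type, 3584 and 3468 CPM in premalignant and 3018 and 2772 CPM in malignant cells. Of the 13, edgeR called 12 lower in malignant cells than in wild type, beside 24.3% of all tested genes. Cd79a, Cd79b and Pax5 stayed above 100 CPM in every library. Igll1 went from 220 and 220 CPM in wild type to 0.151 and 7.03 CPM in malignant cells. Vpreb1 went from 128 and 148 to 0.132 and 3.76 CPM and Dntt from 295 and 249 to 0.0943 and 6.23 CPM. Vpreb2 was at 0 in malignant replicate 1.

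The 19 genes were not all silent before malignancy. In 14 of them there were more than 3 counts in each of the 4 wild-type and premalignant libraries, and in 10 of them at least 1 of these libraries exceeded 0.5 CPM. Only Stc1 and Utf1 were at 3 counts or fewer in every wild-type and premalignant library. The lower of both malignant values exceeded the highest of the other 4 values by a factor between 3.22 for Clec2g and 246 for Cpn1, with a median of 8.98 over the 19 genes. In bulk RNA of a sorted population, more cells with a transcript and more transcript per cell cannot be told apart.

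**Figure D1:**
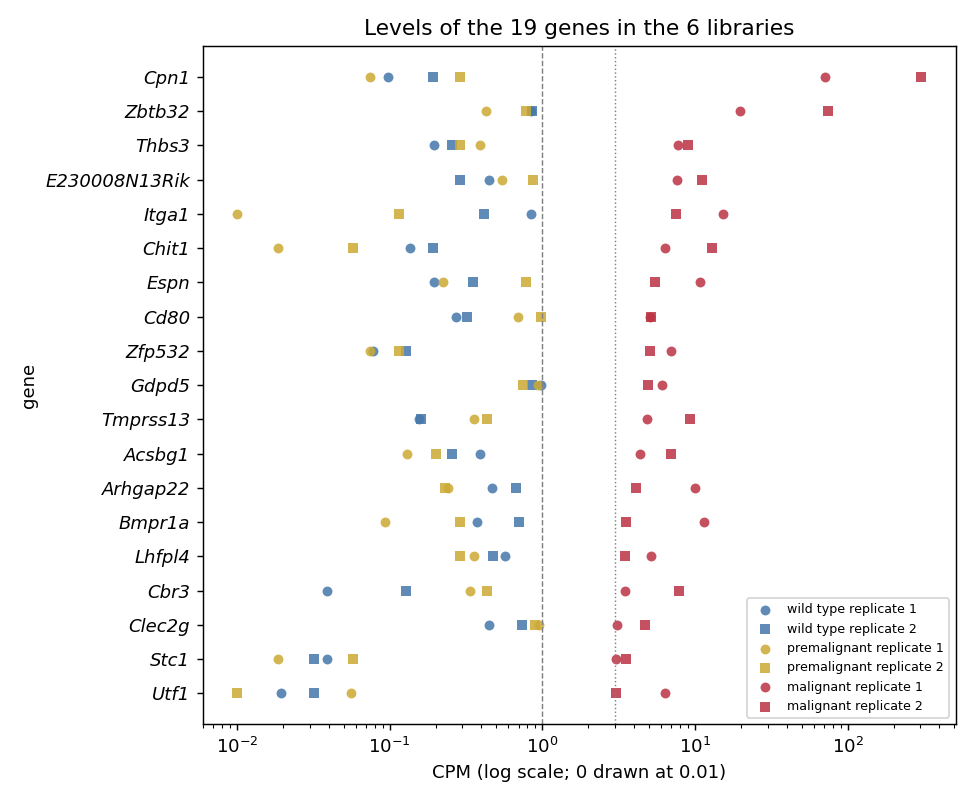
CPM of the 19 genes (x axis, log scale, with 0 drawn at 0.01) in 2 wild-type, 2 premalignant and 2 malignant libraries, with circles for replicate 1 and squares for replicate 2. Dashed and dotted lines mark the limits of 1 and 3 CPM used to choose the genes, and Cpn1 and Zbtb32 stand apart with at least 71.3 and 19.7 CPM in the malignant libraries.

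The first group holds secreted, matrix and protease genes, and all pairs of values below are for replicate 1 and then replicate 2. Cpn1 encodes the catalytic subunit of carboxypeptidase N, a plasma enzyme made in the liver that trims C-terminal lysine and arginine from peptides such as kinins and anaphylatoxins. It was at 0.0979 and 0.192 CPM in wild type, 0.0748 and 0.289 CPM in premalignant and 71.3 and 304 CPM in malignant cells. The deeper wild-type, premalignant and malignant libraries held 5, 4 and 3780 reads of Cpn1 and the shallower ones 6, 10 and 9130. Cpn1 ranked first of the 19 genes in each malignant library, also per length. Thbs3, which encodes a thrombospondin of the extracellular matrix, was at 0.196 and 0.256 CPM in wild type, 0.393 and 0.289 CPM in premalignant and 7.70 and 9.06 CPM in malignant cells. The malignant libraries were close to each other for this gene. For Chit1, the chitotriosidase known from activated macrophages, the values were 0.137 and 0.192 CPM in wild type, 0.0187 and 0.0579 CPM in premalignant and 6.40 and 12.9 CPM in malignant cells. Tmprss13, a membrane-bound serine protease of epithelia, was measured at 0.157 and 0.160 CPM in wild type, 0.355 and 0.434 CPM in premalignant and 4.85 and 9.36 CPM in malignant cells. For both Chit1 and Tmprss13 the malignant replicate 2 library was the higher. Stc1, the secreted glycoprotein hormone stanniocalcin, had 0.0392 and 0.0320 CPM in wild type, 0.0187 and 0.0579 CPM in premalignant and 3.04 and 3.56 CPM in malignant cells. With 2, 1, 1 and 2 reads in the wild-type and premalignant libraries, Stc1 was at the limit of detection before malignancy.

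Cell-surface genes formed the largest group. Itga1 encodes the α1 subunit that pairs with the β1 integrin chain to bind collagen. Its wild-type values were 0.842 and 0.416 CPM, its premalignant values 0 and 0.116 CPM and its malignant values 15.3 and 7.56 CPM. The premalignant libraries were thus both below the wild-type ones for this gene. Bmpr1a, a type I receptor for bone morphogenetic proteins (BMPs), was at 0.372 and 0.703 CPM in wild type, 0.0935 and 0.289 CPM in premalignant and 11.4 and 3.56 CPM in malignant cells. Cd80 encodes the costimulatory ligand that B cells and dendritic cells show to CD28 and CTLA4 on T cells. In wild type it was at 0.274 and 0.320 CPM, in premalignant cells at 0.692 and 0.984 CPM and in malignant cells at 5.11 and 5.19 CPM. Both premalignant values of Cd80 lay above both wild-type values, while the gap to the malignant values is set by the selection. Clec2g, a C-type lectin of the killer cell receptor gene complex, had 0.450 and 0.735 CPM in wild type, 0.954 and 0.897 CPM in premalignant and 3.08 and 4.73 CPM in malignant cells. Lhfpl4, a tetraspan protein of inhibitory synapses, gave 0.568 and 0.479 CPM in wild type, 0.355 and 0.289 CPM in premalignant and 5.15 and 3.50 CPM in malignant cells. For Gdpd5, a membrane glycerophosphodiesterase, the values were 0.979 and 0.863 CPM in wild type, 0.935 and 0.753 CPM in premalignant and 6.08 and 4.89 CPM in malignant cells. Clec2g and Gdpd5 had the most reads before malignancy relative to their malignant level.

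Nuclear factors made up 3 of the 19 genes. Zbtb32 encodes a BTB zinc finger repressor that is induced in activated lymphocytes and plasma cells. Its wild-type values were 0.842 and 0.863 CPM, its premalignant values 0.430 and 0.782 CPM and its malignant values 19.7 and 74.1 CPM. With Cpn1 it was the only gene at 10 CPM or more in both malignant libraries. Utf1, a chromatin factor of embryonic stem cells, had 0.0196 and 0.0320 CPM in wild type, 0.0561 and 0 CPM in premalignant and 6.34 and 3.03 CPM in malignant cells. The 4 wild-type and premalignant libraries held 5 reads of Utf1 in total. Zfp532, a C2H2 zinc finger gene, was at 0.0783 and 0.128 CPM in wild type, 0.0748 and 0.116 CPM in premalignant and 7.0 and 5.06 CPM in malignant cells. For Zfp532 the wild-type and premalignant values overlapped.

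The remaining genes encode enzymes, regulators of the cytoskeleton and a protein of unclear function. Acsbg1, an acyl-CoA synthetase for very long chain fatty acids, was at 0.392 and 0.256 CPM in wild type, 0.131 and 0.203 CPM in premalignant and 4.34 and 7.03 CPM in malignant cells. Cbr3, a carbonyl reductase, had 0.0392 and 0.128 CPM in wild type, 0.337 and 0.434 CPM in premalignant and 3.49 and 7.93 CPM in malignant cells. As for Cd80, both premalignant values of Cbr3 lay above both wild-type values. Espn, which encodes an actin-bundling protein of hair cell stereocilia and microvilli, measured 0.196 and 0.352 CPM in wild type, 0.224 and 0.782 CPM in premalignant and 10.8 and 5.49 CPM in malignant cells. Arhgap22, a GTPase-activating protein for Rac, gave 0.470 and 0.671 CPM in wild type, 0.243 and 0.232 CPM in premalignant and 10.0 and 4.10 CPM in malignant cells. The gene model E230008N13Rik, which RefSeq lists as the coiled-coil gene Ccdc180, stood at 0.450 and 0.288 CPM in wild type, 0.543 and 0.868 CPM in premalignant and 7.64 and 11.1 CPM in malignant cells. Its premalignant replicate 2 library was the highest of the 4 before malignancy.

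To compare the genes with each other, counts were divided by exon length as well as by depth (RPKM, the CPM per kilobase of exon). Averaged over both malignant libraries, Cpn1 had 50.9 RPKM, above 87.2% of the 8994 autosomal protein-coding genes at 3 CPM or more in both malignant libraries. Zbtb32 followed with 19.9 RPKM, above 66.4% of them. Chit1 at 5.30 RPKM, Cbr3 at 4.88 RPKM and Utf1 at 3.82 RPKM came next. All other members lay between 0.786 RPKM for Stc1 and 2.19 RPKM for Tmprss13, which is above at most 7.54% of those genes, and neighbours in that order differed by less than both malignant values of at least 1 gene of the pair did. By rank in RPKM among the 21377 genes, Cpn1 was number 3048 in malignant replicate 1 and number 665 in replicate 2. Most of the 19 genes were thus weakly transcribed in malignant cells too.

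The 2 malignant libraries are separate lymphomas, and they differed more for these genes than for most. Of the 19 genes, 8 were higher in replicate 1 and 11 in replicate 2. The larger malignant value exceeded the smaller by less than 2-fold in 11 genes, by 2- to 4-fold in 7 and by over 4-fold in 1, which was Cpn1 at 4.26-fold. The median of this factor was 1.93 for the 19 genes and 1.24 for the 8994 genes at 3 CPM or more in both malignant libraries. The 5 largest factors were those of Cpn1, Zbtb32 at 3.75, Bmpr1a at 3.21, Arhgap22 at 2.44 and Cbr3 at 2.27. Cpn1, Zbtb32 and Cbr3 were higher in replicate 2, and Bmpr1a and Arhgap22 in replicate 1. The 5 smallest were those of Cd80 at 1.02, Stc1 at 1.17, Thbs3 at 1.18, Gdpd5 at 1.24 and Zfp532 at 1.38. With 1 library per lymphoma, these factors have no replicate check, and low counts widen them.

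A further 35 genes were below 1 CPM in the wild-type and premalignant libraries and reached 3 CPM in malignant replicate 1 alone, and 14 did so in malignant replicate 2 alone. The 19 genes shared by both lymphomas were therefore 35.2% of the 54 genes that met the limits in replicate 1 and 57.6% of the 33 that met them in replicate 2. Replicate 1 was the deeper library and the male one, and the part of either in the unequal numbers was not tested.

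**Figure D2:**
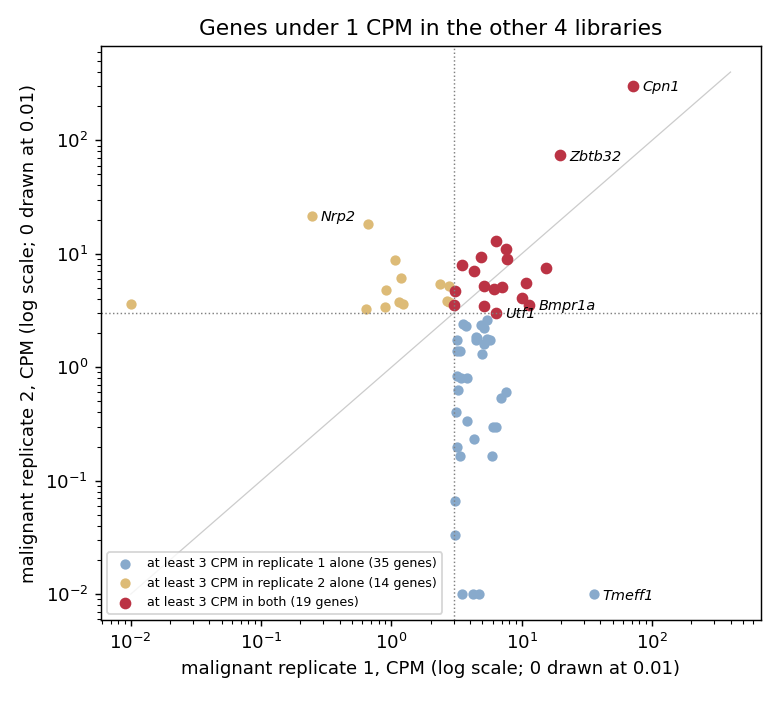
CPM in malignant replicate 1 (x axis) against malignant replicate 2 (y axis), both on log scales with 0 drawn at 0.01, for genes under 1 CPM in the other 4 libraries. The 19 genes at 3 CPM or more in both libraries (red) lie above both dotted limits, with Cpn1 and Zbtb32 far along the replicate 2 side, while 35 and 14 genes passed the limit in replicate 1 or replicate 2 alone.

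The limits cut through a continuum. Just inside the limit of 1 CPM lay Cd80, Gdpd5, Clec2g, E230008N13Rik and Zbtb32, whose highest value before malignancy was 0.984, 0.979, 0.954, 0.868 and 0.863 CPM. Just outside it were Tbc1d30, Irgc1 and Bco2, each at 1.10 CPM, Tppp3 at 1.25 CPM and Bag3 at 1.27 CPM. At the limit of 3 CPM, the lower malignant value was 3.03 CPM for Utf1, 3.04 CPM for Stc1, 3.08 CPM for Clec2g, 3.49 CPM for Cbr3 and 3.50 CPM for Lhfpl4. Sh2d6 and Dusp18 missed it at 2.77 CPM, Lrrc23 at 2.66 CPM, Eno2 at 2.60 CPM and Gm410 at 2.40 CPM. Genes on either side of the limits hence had nearly the same levels.

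Whether the 19 genes moved before lymphoma was asked by comparing premalignant with wild-type cells, since the selection capped both stages at 1 CPM and did not use their difference. In the premalignant libraries Cbr3, Cd80 and Tmprss13 were higher than in wild type, and Itga1 and Chit1 were lower (edgeR quasi-likelihood test over 16683 genes, Benjamini-Hochberg FDR of 0.1 or less and an absolute log2 fold change of 0.5 or more). These are 3 of 19 genes higher and 2 of 19 lower, beside 19% of all tested genes called higher and 20.3% called lower. The shares cannot be read against each other directly. The cap left out any gene that reached 1 CPM in either stage, which limits the changes a member can show. As an example, 9 genes were below 1 CPM in wild type and at 3 CPM or more in all premalignant and malignant libraries. All 19 genes passed the filter on low counts, but 5 of them did so only through the malignant libraries, since 14 passed when the wild-type and premalignant libraries were fitted alone. That fit called Cbr3, Cd80, Tmprss13 and E230008N13Rik higher and Itga1 lower, 4 and 1 of 14, beside 3997 higher and 4248 lower of 16313 genes tested. Chit1, at no more than 0.192 CPM before malignancy, was 1 of the 5 that passed only through the malignant libraries. Its call therefore depends on the level used to select it.

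Cbr3 showed a log2 fold change of 2.48 ± 0.72 (SE, n = 2 per stage) with an edgeR FDR of 0.0447, from 6 reads in wild type to 33 in premalignant libraries. Cd80 had a log2 fold change of 1.70 ± 0.39 with an edgeR FDR of 0.0221, from 24 to 71 reads. Tmprss13 had a log2 fold change of 1.5 ± 0.49 with an edgeR FDR of 0.0617, from 13 to 34 reads. For each of these genes both premalignant values lay above both wild-type values. Itga1 fell by 3.42 ± 1.09 on the log2 scale with an edgeR FDR of 0.0581, from 56 to 4 reads. Chit1 went from 13 reads in wild type to 3 in premalignant libraries, a ratio of pooled CPM of 0.216 with an exact 95% counting interval of 0.0395 to 0.786, and its edgeR FDR was 0.0998. Both premalignant values of Itga1 and Chit1 lay below both wild-type values. Itga1 was therefore lowest in premalignant cells and Cbr3, Cd80 and Tmprss13 in wild type, while the higher malignant level is set by the selection.

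Over all 19 genes, the premalignant value exceeded the wild-type value of the same replicate number in both replicates for 7 genes, was below it in both for 9 and differed in direction for 3. Nothing says that the replicate numbers pair the mice. The same split was not taken over all tested genes, so this one is a description. Leaving out a wild-type or premalignant library left 1 library in that stage, and edgeR then called fewer of all tested genes as well. The losses that follow therefore do not show that a call rested on the library left out. Without wild type replicate 1 edgeR called none of the 19 (1 at an unadjusted p under 0.05), without wild type replicate 2 only Cbr3, without premalignant replicate 1 only Cd80 and without premalignant replicate 2 only Itga1. Without either of the malignant libraries, 8 of the 19 were called, 5 higher and 3 lower, with Clec2g, E230008N13Rik and Arhgap22 in addition, beside 3760 higher and 4507 lower of 17063 genes without malignant replicate 1 and 4076 and 4379 of 18065 without replicate 2. At an FDR of 0.05 only Cbr3 and Cd80 were called.

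**Figure D3:**
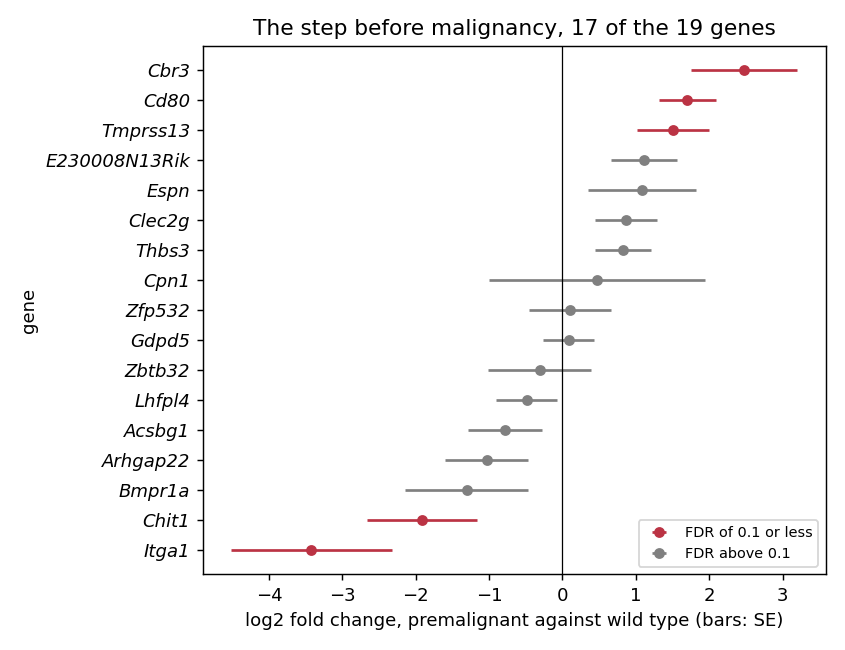
Log2 fold change of premalignant against wild-type cells (x axis) for 17 of the 19 genes, with 2 libraries per stage and bars for the SE of the edgeR fit. Cbr3, Cd80 and Tmprss13 on the right and Chit1 and Itga1 on the left passed an FDR of 0.1 (red), while Stc1 and Utf1, with 3 or fewer reads per stage, are left out. Chit1 passed the filter on low counts only through the malignant libraries.

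Genes next to a member were examined as a measure that the selection did not use. The nearest protein-coding genes on either side were 38 genes other than members, of which 31 passed the filter. Between malignant and premalignant cells 4 of these 31 were higher (12.9%) and 1 was lower (3.23%), beside 3.73% of all tested genes called higher and 2.45% called lower. Their median log2 fold change was 0.32, beside 0.04 over all tested genes. Between malignant and wild-type cells 7 were higher and 8 were lower (22.6% and 25.8%), beside 24.9% and 24.3% of all tested genes, with medians of -0.05 and -0.02. Cyp2c44 and Kndc1 are among the genes called higher in both comparisons. They were near 0 before malignancy and passed the filter on low counts only through the malignant libraries, which nearly fixes the direction of their calls. The shares called higher therefore cannot be read directly against those of all tested genes.

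Cyp2c44, a cytochrome P450 gene 18466 bases upstream of Cpn1 on the same strand, was at 0 and 0.0320 CPM in wild type, at 0 in both premalignant libraries and at 2.25 and 1.43 CPM in malignant cells. Against the 3 counts over the stage taken as the floor, it was at least 57.2-fold higher in malignant than in premalignant cells (edgeR FDR of 0.0304). Kndc1, which encodes a guanine nucleotide exchange factor and lies 2252 bases upstream of Utf1 on the same strand, was at 0.0783 and 0 CPM in wild type, 0.0187 and 0.0579 CPM in premalignant and 5.74 and 1.73 CPM in malignant cells. Its pooled ratio of malignant to premalignant CPM was 126, with an exact 95% counting interval of 42.7 to 613 (edgeR FDR of 0.0430). Both genes thus had near-zero levels before malignancy and both malignant libraries above them, as the members beside them had, and both stayed below 3 CPM in at least 1 malignant library. Malignant replicate 1 was the higher in Kndc1 as in Utf1, whereas Cyp2c44 was higher in replicate 1 and Cpn1 in replicate 2. Dnmbp, which encodes a scaffold of Cdc42 signalling and lies on the other side of Cpn1 at a gap of 43915 bases, was higher by a log2 fold change of 1.06 ± 0.26 (edgeR FDR of 0.0958). Malt1, a paracaspase of antigen receptor signalling 101407 bases from Zfp532, was higher by 0.73 ± 0.17 (edgeR FDR of 0.0864). These 2 were also present before malignancy, Dnmbp at 4.17 to 9.69 CPM and Malt1 at 58.2 to 131 CPM. The gene called lower was Fxyd6 beside Tmprss13, at 6.05 and 5.72 CPM in wild type, 0.112 and 0.116 CPM in premalignant cells and 0 in both malignant libraries. Its premalignant libraries held 10 reads in all. Against the floor of 3 counts, its ratio of malignant to premalignant CPM was at most 0.318 (edgeR FDR of 0.0579).

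The calls between malignant and premalignant cells were not stable. Without premalignant replicate 1 or without premalignant replicate 2 edgeR called none of the neighbours (8 and 7 at an unadjusted p under 0.05). Without wild type replicate 1 it called only Cyp2c44, and without wild type replicate 2 only Cyp2c44 and Kndc1. The number rose to 10 without malignant replicate 1 and 15 without malignant replicate 2, and DESeq2 called 7, with Cyp2c44 and Kndc1 among those in all 3.

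**Figure D4:**
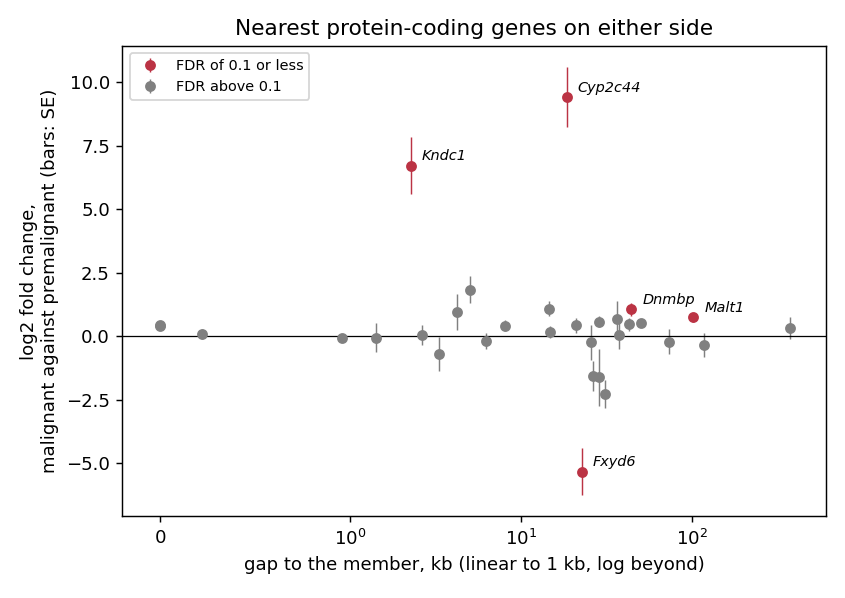
Log2 fold change of malignant against premalignant cells (y axis, bars for the SE of the edgeR fit) for the 31 tested neighbours by the gap to the member in kb (x axis, linear to 1 kb and log beyond). Cyp2c44 and Kndc1 lie far above the rest and Fxyd6 below it. The fitted value of a gene at 0 in a whole stage depends on the fit and is not a bound. Cyp2c44 and Kndc1 passed the filter on low counts only through the malignant libraries.

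Partners and relatives of the members, chosen after the members were known, showed which parts of a known system were present. Cpn2, the other subunit of carboxypeptidase N, had at most 0.0196 CPM in any library, so that the Cpn1 transcript stood without that of its partner. Itgb1, the partner of the α1 integrin chain, was at 141 and 105 CPM in wild type, 93.3 and 92.8 CPM in premalignant and 172 and 175 CPM in malignant cells, which is a rise of 0.98 ± 0.17 (log2, malignant against premalignant, edgeR FDR of 0.0456). Itga2, a neighbouring gene for another collagen-binding α chain, was at 6.93 and 4.03 CPM in wild type, 0.299 and 0.579 CPM in premalignant and 0.113 and 0.166 CPM in malignant cells. It fell from wild type to premalignant cells (log2 fold change -3.45 ± 0.53, edgeR FDR of 0.00686), as Itga1 did, and both malignant values lay below both premalignant values. Cd86, which shares its receptors with Cd80, was at 3.80 and 4.16 CPM in wild type, 2.45 and 3.71 CPM in premalignant and 18.9 and 14.4 CPM in malignant cells. Cd86 thus rose by 2.52 ± 0.34 (log2, malignant against premalignant, edgeR FDR of 0.0254). Cd80 was selected for a rise at that step. The receptor side was low in malignant cells, with Cd28 at 0 and 0.266 CPM. The rises of Itgb1 and Cd86 were no longer called without premalignant replicate 1 (edgeR FDR of 0.432 and 0.312) or without premalignant replicate 2 (0.348 and 0.200).

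For Bmpr1a, the signalling chain around the receptor was uneven. The type II receptor Bmpr2 was at 0.0755 CPM in malignant replicate 1 and 3.13 CPM in replicate 2. The activin type II receptors Acvr2a and Acvr2b, which BMPs also use, were at 5.23 and 3.83 CPM and at 4.02 and 2.70 CPM in malignant cells, and the type I receptor Bmpr1b was at 0 in all 6 libraries. Of the Smad proteins that these receptors phosphorylate, Smad5 was at 92.5 and 77.9 CPM and Smad1 at 0.0943 and 1.57 CPM in malignant cells. Among 32 other tested genes of the BMP, TGF-β and activin pathway, edgeR called none higher in malignant than in premalignant cells (3 at an unadjusted p under 0.05, and 3 by DESeq2) and 3 lower, which were Eng, Gdf11 and Tgfb1. Of all tested genes, 3.73% were called higher and 2.45% lower in this comparison. Tgfb1 was at 148 and 136 CPM in premalignant and 67.0 and 86.5 CPM in malignant cells, a fall of 0.81 ± 0.15 on the log2 scale (edgeR FDR of 0.0575). None of the 3 was called by edgeR when any 1 of the wild-type or premalignant libraries was left out, and with the replicate block Gdf11 was not called (FDR of 0.115). The median log2 fold change of the list was -0.31, beside 0.04 over all tested genes.

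The list of adhesion and matrix receptors of leukocytes holds Itga1. Of its 34 tested genes other than Itga1, 5 were higher in malignant than in premalignant cells (14.7%, beside 3.73% of all tested genes) and edgeR called none lower (1 at an unadjusted p under 0.05, and none by DESeq2). The 5 were integrin chains, Itga5, Itga9, Itgad, Itgb1 and Itgb7, and the median of the list was 0.05. Itga9 was at 49.2 and 60.3 CPM in wild type, 11.7 and 12.6 CPM in premalignant and 46.5 and 48.5 CPM in malignant cells (log2 fold change 2.05 ± 0.17 from premalignant, edgeR FDR of 0.0109). Itga5 showed the same course, with 18.5 and 20.9, then 5.39 and 5.07, then 25.3 and 16.3 CPM. Both fell from wild type to premalignant cells and did not pass the test between malignant cells and wild type (log2 fold changes of 0.09 and 0.38, edgeR FDR of 0.677 and 0.296). Without premalignant replicate 1 or without premalignant replicate 2 none of these integrin genes was called by edgeR, and without either of the wild-type libraries 3 were called, Itga5, Itga9 and Itgb1. With the replicate block all but Itgad were called.

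Relatives of the other members differed in their course. The thrombospondin genes Thbs1 and Thbs4 were at 0.113 and 0.733 CPM and at 0 and 0.0333 CPM in malignant cells, below their wild-type values of 3.29 and 12.3 CPM and of 1.64 and 2.30 CPM. Comp, of the same family, did not fall, at 0.333 and 0.384 CPM in wild type and 0.340 and 0.433 CPM in malignant cells (edgeR FDR of 0.541). Thbs2 was at no more than 0.176 CPM in any library and did not pass the filter on low counts. Without wild type replicate 2 the fall of Thbs1 was not called (edgeR FDR of 0.190). Chi3l1, a chitinase-like gene next to Chit1, was at 9.52 and 23.5 CPM in wild type, 2.88 and 2.78 CPM in premalignant and 0.359 and 0.766 CPM in malignant cells. Chi3l1 was called lower in premalignant cells than in wild type (log2 fold change -2.33 ± 0.54, edgeR FDR of 0.0225). It was also lower in malignant cells than in wild type (-4.61 ± 0.61, edgeR FDR of 0.00252). The call between premalignant and wild-type cells was lost without wild type replicate 2 (edgeR FDR of 0.137), premalignant replicate 1 (0.141) or premalignant replicate 2 (0.147). Stc2, the relative of Stc1, was at 0.0587 and 0.192 CPM in wild type, 1.48 and 2.03 CPM in premalignant and 0 and 0.266 CPM in malignant cells. Of the embryonic stem cell factors that act with Utf1, Sox2 was at 0 in all 6 libraries and Nanog at 0.868 to 1.41 CPM. Pou5f1 was at 1.19 CPM in malignant replicate 1, where Utf1 was also the higher, and at 0.133 to 0.206 CPM in the other 5 libraries, and it did not pass the filter on low counts. The list of C-type lectin and killer cell receptors, which holds Clec2g, had 45 other tested genes, of which edgeR called none higher in malignant than in premalignant cells (none at an unadjusted p under 0.05, and none by DESeq2). Of 326 other tested zinc finger genes named Zfp, edgeR called 6 higher and 15 lower in this comparison, and of 1250 other tested Gm and Rik gene models 30 higher and 22 lower. The other fixed lists held none of the 19 genes, and over all lists 90 of 2665 tested genes were called higher and 80 lower. These list counts stand beside 3.73% of all tested genes called higher and 2.45% called lower in the same comparison.

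The summed markers of most other cell types were lower in malignant cells than in wild type. Chit1 is a macrophage gene and Cd80 is high on activated B cells and dendritic cells. The 17 myeloid markers summed to 1437 and 3307 CPM in wild type, 384 and 407 CPM in premalignant and 85 and 169 CPM in malignant cells. Their median log2 fold change from the premalignant to the malignant stage was -1.45. None of them was called by edgeR at that step (10 lower and none higher at an unadjusted p under 0.05). Only the macrophage markers Emr1 and Cd14 had a positive log2 fold change there (0.29 and 1.17, edgeR FDR of 0.902 and 0.508). In malignant cells Emr1 was at 0.132 and 0.566 CPM and Cd14 at 0.151 and 0.200 CPM. The premalignant values were 0.206 and 0.376 CPM for Emr1 and 0.0748 and 0.0868 CPM for Cd14. Csf1r and Lyz2, also on the list, had log2 fold changes of -0.62 and -1.79. The part of such cells in the levels of Chit1 and Cd80 was not tested. The sums of the T cell, natural killer cell, erythroid, endothelial, plasmacytoid dendritic cell and plasma cell markers were likewise lower in both malignant libraries than in both wild-type libraries. Of all markers of these cell types, of mast cells, megakaryocytes, stroma and progenitors, none had both malignant values above all 4 others. The 6 mature B cell markers summed to 606 and 751 CPM in wild type, 538 and 593 CPM in premalignant and 672 and 661 CPM in malignant cells, with Cd22 the 1 marker of all lists above all 4 others in both malignant libraries. Prdm1, a repressor that marks plasma cells, was at 7.68 and 6.55 CPM in wild type, 0.393 and 0.376 CPM in premalignant and 0.340 and 1.23 CPM in malignant cells. It fell from wild type to premalignant cells (log2 fold change -3.99, edgeR FDR of 0.00785) and did not pass the test between premalignant and malignant cells (1.07, FDR of 0.406). Igj, the joining chain gene of plasma cells, was at 0.823 and 1.42 CPM in premalignant and 1.57 and 6.16 CPM in malignant cells and did not pass that test in edgeR either (1.85, FDR of 0.212), while DESeq2 called 1 of the 5 tested plasma cell markers higher. The part of such cells in the level of Zbtb32 was not tested.

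By position, the 19 genes lay on 11 chromosomes (NCBIM37, mm9, GENCODE vM1), and no 2 of them lay within 1 Mb of each other. The closest were Arhgap22 and Bmpr1a on chromosome 14, with a gap of 1040798 bases. Cpn1 (ENSMUSG00000025196) spans chr19:44030797-44061046 on the minus strand, Zbtb32 (ENSMUSG00000006310) spans chr7:31374700-31383928 on the minus strand and Utf1 (ENSMUSG00000047751) spans chr7:147129688-147131011 on the plus strand. Of the genes called between premalignant and wild-type cells, Cbr3 (ENSMUSG00000022947) lies at chr16:93683460-93691235, Cd80 (ENSMUSG00000075122) at chr16:38459013-38495821, Tmprss13 (ENSMUSG00000037129) at chr9:45127183-45155664 and Chit1 (ENSMUSG00000026450) at chr1:136007819-136048117, all on the plus strand, and Itga1 (ENSMUSG00000042284) at chr13:115748287-115892172 on the minus strand. The median exon length was 3688 bases, beside 3795 bases for the 8994 genes at 3 CPM or more in both malignant libraries and 2750 bases for all 21377 genes. The median span was 36809 bases, beside 22884.5 and 15575 bases. Exons of 5 members overlap those of another gene. Arhgap22 shares 36.9% of its exon bases with Gm15512 on the opposite strand, which was at no more than 0.472 CPM, and Thbs3 shares 6.59% with Mtx1 on the opposite strand, which was at 38.9 to 68.3 CPM. Whether the counting used strand is not given in the sources used here, and the kit does not mark it, so reads in shared bases cannot be assigned. The overlaps of Clec2g, Bmpr1a and Tmprss13 covered 7.51%, 4.57% and 1.73% of their exon bases.

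The sequence around the transcription start was read from RefSeq (GRCm38.p6, a build other than that of the coordinates above), as windows of 250 bases before to 50 after each start, on the strand of the gene. Of the 19 genes, 15 matched an entry, with 18 windows in all. A pair of short motifs was searched on both strands, the E-box CACGTG that Myc with Max binds and that reads the same on both strands, and the TATA box letters TATAAA. The E-box was found in 1 of the 18 windows, beside 7.89% of the 20084 windows of all autosomal protein-coding genes and 10.8% of the 9186 windows of genes at 3 CPM or more in both malignant libraries. The TATAAA letters were found in 1 of 18, beside 12.7% of all windows and 6.21% of those of genes at 3 CPM or more in both malignant libraries. These are matches of letters and not binding sites, and a window without them says nothing of more distant elements. The 2 windows with a match are shown, with the match in capitals. In E230008N13Rik (Ccdc180, chr4:45890053-45890352, plus strand) the E-box starts at base -95 from the start site, and in Cd80 (chr16:38458683-38458982, plus strand) the letters TTTATA, which are TATAAA on the other strand, start 4 bases after it.
E230008N13Rik: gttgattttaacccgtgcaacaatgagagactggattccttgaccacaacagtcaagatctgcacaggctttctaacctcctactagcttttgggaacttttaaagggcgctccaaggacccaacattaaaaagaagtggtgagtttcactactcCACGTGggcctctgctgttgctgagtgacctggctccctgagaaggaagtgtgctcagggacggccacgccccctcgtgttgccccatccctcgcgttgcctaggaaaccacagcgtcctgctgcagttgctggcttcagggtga
Cd80: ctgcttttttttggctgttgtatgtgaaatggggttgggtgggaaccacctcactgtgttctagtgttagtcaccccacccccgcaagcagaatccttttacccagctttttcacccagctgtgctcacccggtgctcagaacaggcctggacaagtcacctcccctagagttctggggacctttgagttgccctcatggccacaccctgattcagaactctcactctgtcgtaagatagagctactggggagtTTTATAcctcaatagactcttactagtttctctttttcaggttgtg

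The 18 windows of the 15 matched genes were poor in CpG, the dinucleotide that is methylated in mammals and that is dense in the promoters of most broadly used genes. Other genes below 1 CPM before malignancy were not taken as a comparison set. The observed to expected ratio of CpG (the number of CG times the length, divided by the number of C times the number of G) had a median of 0.372 over the 18 windows, beside 0.586 over all autosomal protein-coding genes and 0.792 over the genes at 3 CPM or more in both malignant libraries. A ratio of 0.6 or more, the usual limit for a CpG island, was reached by 4 of 18 windows (22.2%), beside 48.9% and 75.7%. The 4 were those of Bmpr1a at 1.02, Lhfpl4 at 0.743, Cbr3 at 0.704 and Utf1 at 0.615. The median GC content was 56.3%, beside 57.0% and 61.3% in the same sets. Windows of 1 gene share sequence and the genes were selected, so these shares are descriptions without a test. To show the range, 3 windows follow with every CG in capitals. Cpn1 (chr19:43986471-43986770, minus strand), the gene with the most reads, had 8 CG. Chit1 (chr1:134110992-134111291, plus strand) had 2 and Bmpr1a (chr14:34502497-34502796, minus strand) had 48.
Cpn1: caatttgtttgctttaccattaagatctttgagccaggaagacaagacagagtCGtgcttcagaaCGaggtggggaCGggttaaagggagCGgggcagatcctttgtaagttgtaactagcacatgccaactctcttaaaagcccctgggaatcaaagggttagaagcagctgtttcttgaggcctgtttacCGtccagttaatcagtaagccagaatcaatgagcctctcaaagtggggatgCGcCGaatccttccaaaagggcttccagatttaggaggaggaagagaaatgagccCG
Chit1: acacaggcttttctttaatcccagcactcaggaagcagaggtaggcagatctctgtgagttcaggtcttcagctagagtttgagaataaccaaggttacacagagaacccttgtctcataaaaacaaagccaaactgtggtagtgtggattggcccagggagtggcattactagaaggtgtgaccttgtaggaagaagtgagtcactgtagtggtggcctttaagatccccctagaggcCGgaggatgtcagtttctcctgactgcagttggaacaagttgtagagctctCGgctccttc
Bmpr1a: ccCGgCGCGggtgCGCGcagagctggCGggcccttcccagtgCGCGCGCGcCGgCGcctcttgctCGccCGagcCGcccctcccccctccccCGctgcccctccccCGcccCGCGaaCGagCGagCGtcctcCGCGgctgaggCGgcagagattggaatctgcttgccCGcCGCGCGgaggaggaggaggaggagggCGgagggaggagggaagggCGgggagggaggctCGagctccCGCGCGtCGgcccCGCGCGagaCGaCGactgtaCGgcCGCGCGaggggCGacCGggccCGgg

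**Figure D5:**
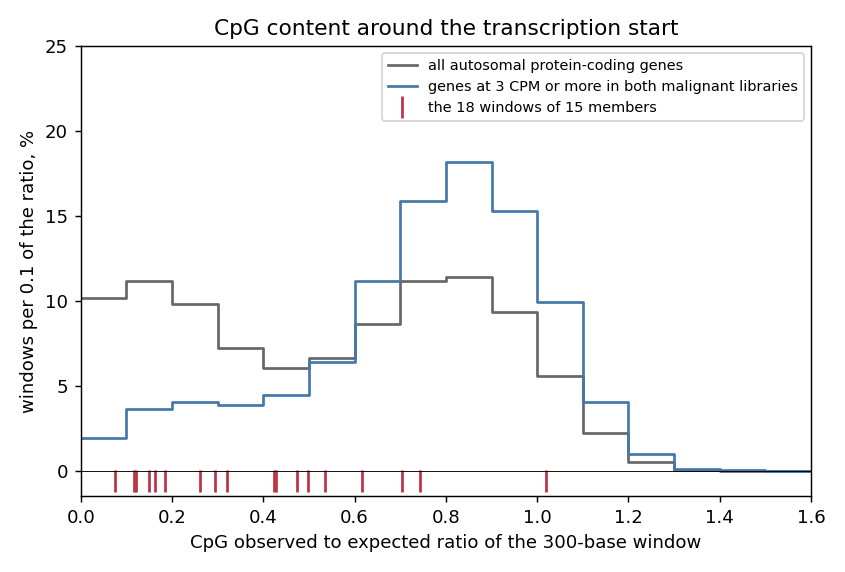
Observed to expected ratio of CpG in windows of 250 bases before to 50 after the transcription start (x axis) for all autosomal protein-coding genes (grey) and for genes at 3 CPM or more in both malignant libraries (blue), as a percentage of windows per 0.1 of the ratio (y axis). Red marks are the 18 windows of 15 members, of which 4 lie at 0.6 or more.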

How the data were processed

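Gene counts of 6 RNA-seq libraries from sorted mouse pre-B cells were used, with 2 mice per stage and the stage taken from the labels of the samples. The authors aligned 50-bp single-end reads with TopHat and used HTSeq to obtain raw counts for Ensembl genes, which they deposited with no normalization. Per the labels the build was mm9, and the options of HTSeq are not given in the sources used here. Further deposited tables hold pooled means, fold changes and p-values of the authors' own comparisons of malignant cells with the other stages and were not used.

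CPM was taken over all 37991 identifiers of a library, and symbols, types and exons came from GENCODE vM1, which matched 37205 of them. The members and gene lists were chosen with earlier results of these data known. edgeR 4.0.16 in R 4.3.3 was run on all 6 libraries in 1 fit (quasi-likelihood test, TMM normalization, default filter on low counts, 16683 genes), with the study's limits of an FDR of 0.1 and an absolute log2 fold change of 0.5 and p-values adjusted over all tested genes. The fit was tested on simulated data. DESeq2 1.42.0, other normalizations, filters, limits and samples were run as alternatives. Intervals are exact 95% intervals and cover counting error only, and depth sets their width. The rule for named genes took the 20 members highest in the lower malignant library (here all), those with the largest and smallest ratio between malignant libraries, those on a list, those called before malignancy, the 5 genes on each side of a limit, neighbours called higher in malignant than in premalignant cells, and markers as ranges. Partners and relatives, single genes of the lists and the other neighbours named fall outside it and were chosen after the members or their values were seen. No promoter entry was matched for Gdpd5, Stc1, Tmprss13 and Zfp532.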

Additional observations from a re-analysis of the deposited data

Results flagged for a closer look

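No stage has 4 or more libraries, so a library far from its group could not be tested. The same levels were also met by 3 autosomal genes that are not protein-coding and that no comparison above uses, which is a signal outside the genes described. Gm11538, a long noncoding RNA gene at chr11:96064768-96066794 (NCBIM37), was at 0.0196 and 0 CPM in wild type, 0.0748 and 0.405 CPM in premalignant and 21.4 and 14.4 CPM in malignant cells. Its nearest protein-coding gene was Hoxb13 at a gap of 6007 bases, which had no reads before malignancy in any of 4 libraries and reached 0.566 and 0.666 CPM in lymphoma. D230022J07Rik (chr2:73225027-73258555, plus strand) was at most at 0.392 CPM before malignancy and at 6.42 and 3.60 CPM in malignant cells. Gm13707, the next transcript on the same strand (chr2:73259966-73267199), was at most at 0.157 CPM before malignancy and at 9.74 and 4.30 CPM in malignant cells. The protein-coding genes on either side of this pair, Gpr155 and Wipf1, had log2 fold changes of 0.44 and 0.20 between malignant and premalignant cells and did not pass the test (edgeR FDR of 0.489 and 0.523). No X-linked protein-coding gene met the same levels.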

How the results depend on the processing

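The number of genes that met the limits was 19 and became 9 below 0.5 CPM before malignancy, 9 at 5 CPM or more in malignant cells, 31 at 2 CPM or more and 19 to 54 when 1 library was left out. With levels per length, 16 genes met the limits, of which 3 were among the 19. A limit of 2-fold in place of 4-fold between the malignant libraries took the number of genes apart from 1 to 8; leaving out a malignant library cannot give this number. Members called between premalignant and wild-type cells were 5, and became 1 with at least 10 counts in every library (6 genes tested), 2 at an FDR of 0.05 and 0 to 8 with 1 library left out. Neighbours called between malignant and premalignant cells were 5, and became 12 without a filter on low counts, 3 with at least 10 counts in every library, 2 with only the 2 groups compared, 2 at an FDR of 0.05 and 0 to 15 with 1 library left out. Between malignant and wild-type cells they went from 15 to 8 with at least 10 counts in every library. Genes of all lists called between malignant and premalignant cells were 170, and became 370 with DESeq2, 496 without the filter, 47 with only the 2 groups, 74 at an FDR of 0.05 and 0 to 653 with 1 library left out (248 and 312 at an unadjusted p under 0.05 where edgeR called none, without either premalignant library). The E-box share of 5.56% of member windows became 0% in the 3 windows of Cpn1 and Zbtb32, and that of comparison windows went from 7.89% to 10.8% for genes on in malignant cells. Where no value shows otherwise, the cause was not tested. The replicate numbers of the stages are shared but nothing says that they pair the mice (correlation of deviations 0.419 between wild type and premalignant, 0.124 between premalignant and malignant and 0.0551 between wild type and malignant). With the replicate block, 5 members, and 5 and 16 neighbours in these comparisons, were called.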

Other observations

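Genes that passed the limits in 1 lymphoma alone included some with large differences between both malignant libraries, and those named here were chosen after their values were seen. Tmeff1, a transmembrane protein of neural tissue, was at 35.8 CPM in malignant replicate 1 and at 0 in replicate 2, and at no more than 0.318 CPM in the other 4 libraries. The growth factor gene Tgfb2 was at 6.40 and 0.300 CPM and the imprinted gene Dlk1 at 3.49 and 0 CPM. In the other direction, Nrp2, a receptor for semaphorins and vascular growth factors, was at 0.245 CPM in malignant replicate 1 and 21.6 CPM in replicate 2, and Podxl, a sialomucin of podocytes and progenitors, at 0.660 and 18.4 CPM. These are values of 1 library each, with no replicate check. Kndc1, the neighbour of Utf1, was also among the genes that passed in replicate 1 alone.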
